A study of Mus musculus with 12 samples.

Results

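The BCL2 family of apoptosis regulators was followed through 10 of its genes in the 18211 genes of the expression table: Bcl2, Bcl2l1, Mcl1, Bax, Bak1, Bid, Bad, Bbc3, Pmaip1 and Bcl2l11. Their rows were taken by gene symbol. The 10 genes were chosen with some earlier results of these data known, as given under the processing. All 10 were in the table, and all 10 passed the filter on low counts that left 13563 genes for testing. RNA was sequenced from 12 tumors of MC38 cells, a mouse colorectal adenocarcinoma line grown under the skin of female C57BL/6 mice that were 5 weeks old at purchase. The mice were divided on day 7 after the cells were injected. CK mice received the vehicle, PB-020 mice received PB-020, an inhibitor of the IGF-1 receptor, by gavage at 50 mg/kg per day, anti-PD-1 mice received an antibody against PD-1 into the peritoneum at 200 μg on days 9, 12, 15 and 18, and PB-020+anti-PD-1 mice received both. Each group had 3 tumors. The tumor cells were injected as a line and the host was immunocompetent, so a library held RNA of both tumor and host cells. The labels do not say that the tumors of a group came from separate mice, and p values then measure the spread between these samples.

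Proteins of the BCL2 family decide whether the outer mitochondrial membrane stays intact during stress. Anti-apoptotic members (BCL2, BCL-XL and MCL1) hold the effectors BAX and BAK in check, and the BH3-only members either block the anti-apoptotic members or activate the effectors directly, after which cytochrome c leaves the mitochondria and caspases are activated. Growth factor signaling through AKT acts on the family at several points, since AKT phosphorylates BAD and keeps FOXO factors, which drive transcription of Bcl2l11 and Bbc3, out of the nucleus.

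The depth of the libraries was even, with 16545394 to 17217035 expected counts. Levels of some markers of cell types and of proliferation moved with the groups, and others overlapped. The summed FPKM (fragments scaled by transcript length and library depth) of 8 T cell markers was 11.4 to 15.7 in CK, 16.6 to 22.0 in PB-020, 26.7 to 67.2 in anti-PD-1 and 31.0 to 52.8 in PB-020+anti-PD-1. That of 5 erythroid markers was 679.1 to 1556 in CK, 449.4 to 1046 in PB-020, 100.6 to 379.6 in anti-PD-1 and 126.6 to 183.8 in PB-020+anti-PD-1. The sum of 5 proliferation markers was 405.6 to 477.8 in CK, 424.9 to 586.4 in PB-020, 533.8 to 623.5 in anti-PD-1 and 573.6 to 612.0 in PB-020+anti-PD-1. That of 7 macrophage markers overlapped, at 772.3 to 994.3 in CK and 867.4 to 994.2 in PB-020+anti-PD-1. A pair of libraries stood apart: anti-PD-1 tumor 1 had a sum of 468.9 over 6 skeletal muscle markers against 9.16 to 53.9 in the other 11 libraries, and CK tumor 3 had 411.6 over 5 neutrophil markers against 6.05 to 33.0 in the others. Epithelial markers of the colon were near 0 in the labelled colorectal tumors, with 2.29 to 4.29 summed over 7 genes and Krt18 listed at 0 in all 3 CK tumors. The part of these cell mixtures in the results below was not tested. In bulk tumors, fewer cells of a type and less RNA per cell cannot be told apart.

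In the vehicle-treated CK tumors the 10 genes spanned a wide range of levels. By mean FPKM, which is per length and so can be compared between genes, the order in CK was Mcl1 at 90.6 ± 1.98 (SD, n = 3), Bax at 63.4 ± 3.12, Bak1 at 58.1 ± 4.84, Bcl2l1 at 39.9 ± 4.47, Bad at 25.9 ± 1.41, Bid at 24.4 ± 2.65, Pmaip1 at 18.8 ± 4.57, Bcl2l11 at 9.27 ± 1.82, Bbc3 at 8.95 ± 1.48 and Bcl2 at 2.69 ± 0.202. The tumors of Bax and Bak1 overlapped, as did those of Bad and Bid, Bid and Pmaip1, and Bcl2l11 and Bbc3, whereas every other pair of neighbours in this order was separate. Of these 10, Bcl2, which names the family, was the least abundant, and Mcl1, whose short-lived protein guards many tumor cells, was the most abundant. With TPM in place of FPKM all 10 kept their rank. After anti-PD-1, alone or combined, the mean of Bak1 lay above that of Bax, with the tumors separate in anti-PD-1 and overlapping in PB-020+anti-PD-1.

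**Figure D1:**
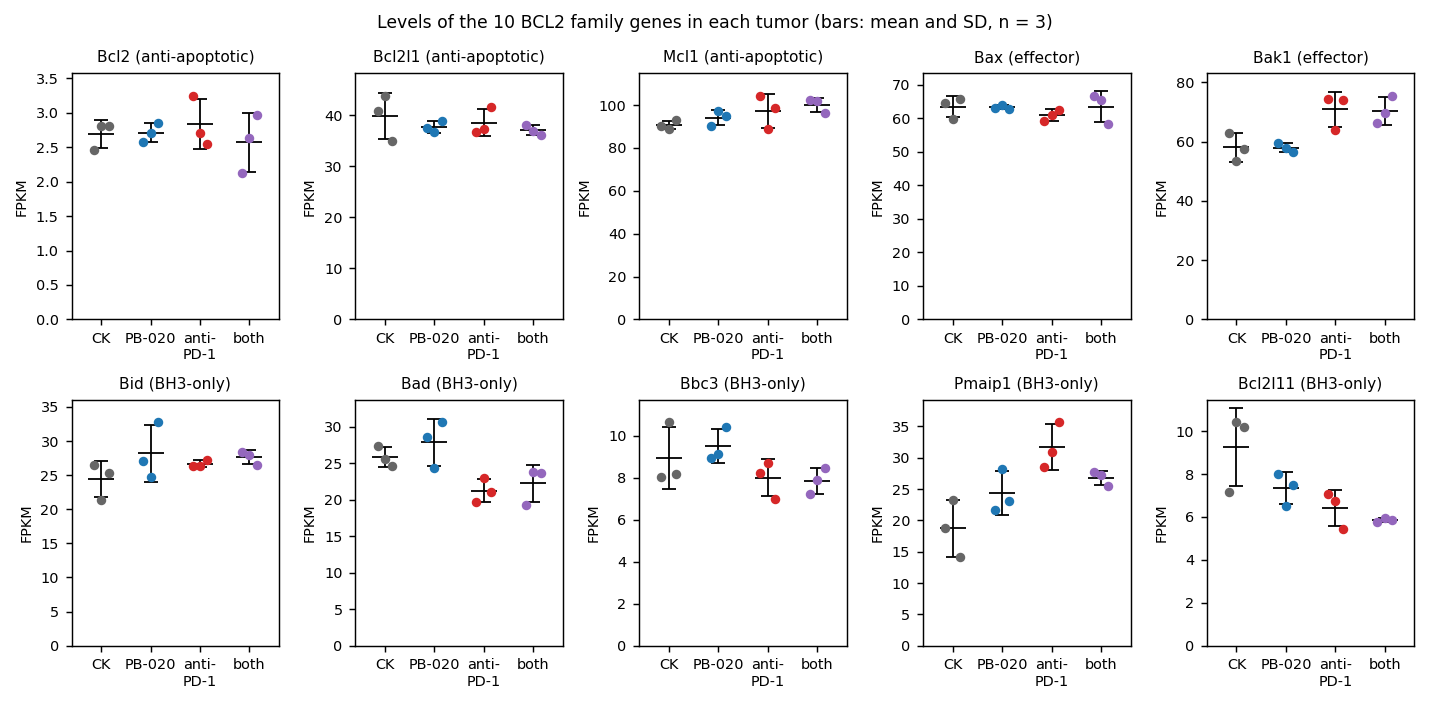
FPKM of each of the 10 genes (vertical axes, from 0) in the 3 tumors of each group, where points are tumors and black marks give the mean and SD, and "both" stands for PB-020+anti-PD-1. Bak1 lay at 53.5 to 63.1 in the 6 tumors without anti-PD-1 and at 64.1 to 75.6 in the 6 with it, while for Bcl2, Bcl2l1 and Bax the tumors of each treated group overlapped those of CK.

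The comparisons with CK asked what each treatment did to these genes. PB-020 alone changed none of the 10 past an adjusted p of 0.05 (edgeR's quasi-likelihood test with Benjamini-Hochberg adjustment over all genes), where 0% of the 13563 genes tested were called, and 3 of the 10 had an unadjusted p under 0.05, as had 5.46% of all genes. DESeq2 called 6 of all genes in this comparison and 0 of the members. After anti-PD-1, 3 of the 10 changed against 8.26% of all genes: Bak1 and Pmaip1 rose and Bcl2l11 fell. In PB-020+anti-PD-1 the calls were again Bak1 and Pmaip1 as higher and Bcl2l11 as lower, 3 of 10 against 17.9% of all genes. These comparisons share the CK tumors. The median log2 change of the 10 was 0.08 after PB-020, 0.05 after anti-PD-1 and -0.01 after the combination, beside -0.0038, 0.00047 and -0.0026 for all genes tested.

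With a call set at over 1.5-fold together with an unadjusted p below 0.05, both from the edgeR fit to counts, 0 of the 10 passed in PB-020 against 0.56% of all genes, Pmaip1 alone passed in anti-PD-1 against 7.18%, and Bcl2l11 alone passed in PB-020+anti-PD-1 against 8.52%. Read by tumors, 0 of the 10 genes had PB-020 tumors that did not overlap the CK tumors, against 14.9% of all genes. For anti-PD-1 this held for 4 of the 10 (Bak1, Pmaip1, Bad and Bcl2l11) against 29%, and for PB-020+anti-PD-1 for these 4 and Mcl1 against 40.4%.

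**Figure D2:**
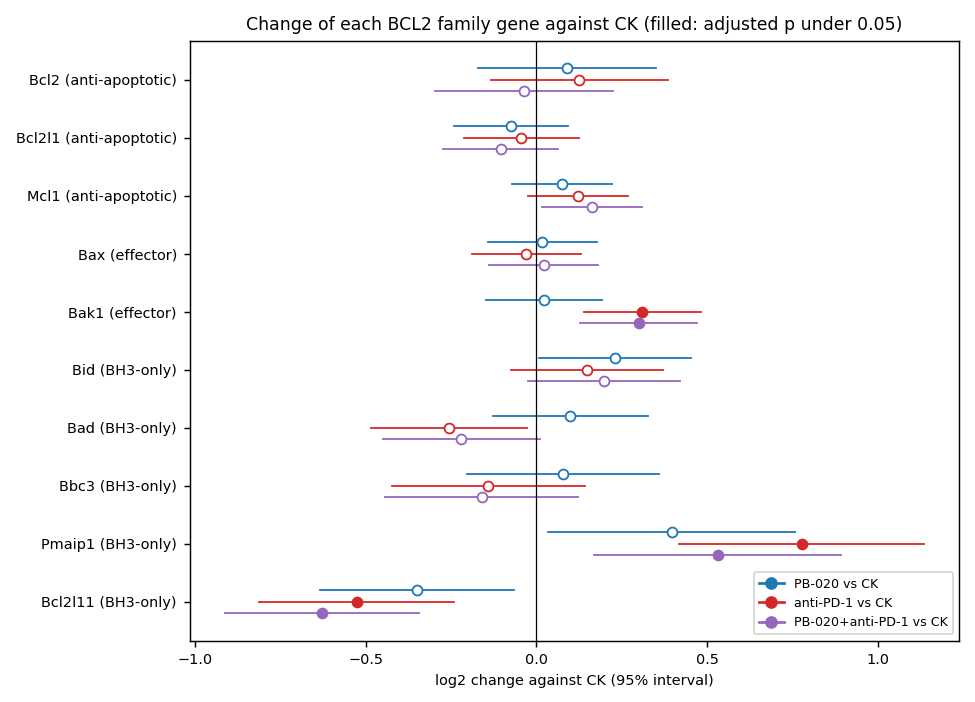
Log2 change of each gene against CK (horizontal axis) with its 95% interval, for the 3 treated groups, from the fit to all 12 libraries, where filled points passed an adjusted p of 0.05. Filled points are seen for Bak1, Pmaip1 and Bcl2l11 after anti-PD-1 and after PB-020+anti-PD-1, and none is filled for PB-020.

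Since anti-PD-1 was given in 2 of the 4 groups, the 6 tumors with it were also set against the 6 without it, as the mean of the changes with and without PB-020. By this main effect 4 of the 10 genes changed, against 24.2% of all genes: Bak1 and Pmaip1 rose, and Bcl2l11 and Bad fell. All 4 calls held in each of the 20 alternatives, which included leaving out each of the 12 libraries in turn. The 6 tumors with anti-PD-1 did not overlap the 6 without it for Bak1 and Bad, 2 of the 10, against 8.14% of all genes. The PB-020 main effect called 0 of the 10 and 0% of all genes. Setting PB-020+anti-PD-1 against anti-PD-1 called 0 of the 10 and 0% of all genes, and setting it against PB-020 called 0 of the 10 against 3.35% of all genes.

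Among the anti-apoptotic members, Mcl1 came closest to a change. Its FPKM was 90.2, 88.9 and 92.8 in the CK tumors, 90.2, 97.3 and 94.8 in PB-020, 104.4, 88.9 and 98.5 in anti-PD-1 and 102.3, 101.7 and 96.2 in PB-020+anti-PD-1. Every PB-020+anti-PD-1 tumor lay above every CK tumor. The rise of 0.16 on the log2 scale (SE 0.0684) did not pass edgeR's quasi-likelihood test across all genes, with an adjusted p of 0.112. By DESeq2 it was called, narrowly, with an adjusted p of 0.0472. Bcl2l1, which encodes BCL-XL, ran from 35.1 to 43.9 FPKM in the 12 tumors, and Bcl2 from 2.12 to 3.25. In PB-020+anti-PD-1 against CK the log2 change of Bcl2l1 was -0.10 (95% interval -0.27 to 0.06) and that of Bcl2 was -0.04 (-0.30 to 0.22), and edgeR called 0 of the 3 anti-apoptotic members in any comparison.

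The effectors differed from each other. Bak1 (gene 12018), which encodes the pore-forming protein BAK, lies on the minus strand at chr17:27019812-27028627 (GRCm38.p6), and its FPKM was 63.1, 53.5 and 57.7 in CK, 59.7, 57.9 and 56.5 in PB-020, 74.6, 64.1 and 74.0 in anti-PD-1 and 66.3, 69.6 and 75.6 in PB-020+anti-PD-1. All 6 tumors with anti-PD-1 were above all 6 without it, whether or not PB-020 was given. The median was 71.8 against 57.8, and the main effect was a rise of 0.29 on the log2 scale (SE 0.0562, edgeR adjusted p = 0.00333), or 1.23-fold. Against CK the rise was 0.31 (SE 0.0795) in anti-PD-1 and 0.30 (SE 0.0795) in PB-020+anti-PD-1, with edgeR adjusted p values of 0.0323 and 0.0216.

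The Bak1 calls against CK were less firm than the main effect. In PB-020+anti-PD-1 the call was lost without CK tumor 2 (edgeR adjusted p = 0.104), CK tumor 3 (0.0597), PB-020+anti-PD-1 tumor 2 (0.0585) or PB-020+anti-PD-1 tumor 3 (0.0691), at log2 changes of 0.24 to 0.30. In anti-PD-1 it was lost without CK tumor 2 (0.141), CK tumor 3 (0.0845), PB-020 tumor 1 (0.0521), anti-PD-1 tumor 1 (0.0773) or anti-PD-1 tumor 3 (0.124). PB-020+anti-PD-1 against PB-020 gave a Bak1 change of 0.28 (SE 0.0795) with an edgeR adjusted p of 0.0696, which became 0.0397 without anti-PD-1 tumor 1 and 0.0446 without anti-PD-1 tumor 2. Of the exonic bases of Bak1, 25.5% are shared with Ggnbp1 on the opposite strand, whose mean FPKM was 1.90 in CK and 1.39 in PB-020+anti-PD-1. Whether the libraries kept strand is not given in the sources used here, so reads of this stretch cannot be told apart. The same holds for 17.7% of the exonic bases of Bid, shared with Bcl2l13, and 6.09% of those of Bcl2, while 12.2% of those of Bax are shared with another gene model on the same strand.

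Bax, the other effector, stayed within 58.2 to 66.8 FPKM in all 12 tumors, the narrowest range of the 10 genes, with its highest tumor at 1.15 times its lowest. Its log2 change in PB-020+anti-PD-1 against CK was 0.02 (95% interval -0.14 to 0.18). The ratio of Bak1 to Bax was accordingly 0.88 to 0.98 in the CK tumors, 0.90 to 0.95 in PB-020, 1.05 to 1.26 in anti-PD-1 and 0.99 to 1.30 in PB-020+anti-PD-1. No tumor without anti-PD-1 reached the lowest ratio of the tumors with it, though 0.98 and 0.99 lay close. Since Bax varied little, the ratio largely restates the levels of Bak1, and it is given with no test.

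Among the 5 BH3-only members, Pmaip1 rose and Bcl2l11 fell after anti-PD-1 and after the combination, and the other 3 were not called against CK. Bcl2l11 (gene 12125) encodes BIM, which binds all anti-apoptotic members and can activate BAX and BAK. It lies on the plus strand at chr2:128126038-128162547 (GRCm38.p6). Its FPKM was 7.18, 10.4 and 10.2 in CK, 8.01, 6.52 and 7.49 in PB-020, 7.06, 6.74 and 5.46 in anti-PD-1 and 5.75, 5.95 and 5.85 in PB-020+anti-PD-1. All tumors of the last group lay below all CK tumors, whereas CK tumor 1 lay below PB-020 tumors 1 and 3. In PB-020+anti-PD-1 against CK, Bcl2l11 fell by 0.63 on the log2 scale (SE 0.133, 95% interval -0.91 to -0.34, edgeR adjusted p = 0.00842), to 0.647 of the CK level. This fall was already known from these data when the 10 genes were chosen. The fall was called in all 21 alternatives, with log2 changes of -0.77 to -0.54 and adjusted p values of 0.00349 to 0.0442 when single libraries were left out and adjusted p values of 0.000523 to 0.0201 under the other settings.

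After anti-PD-1 alone Bcl2l11 fell by 0.53 (SE 0.132, edgeR adjusted p = 0.0306). That call was lost without CK tumor 2 (adjusted p = 0.131), CK tumor 3 (0.0851) or anti-PD-1 tumor 3 (0.106). After PB-020 alone the log2 change was -0.35 (SE 0.132, unadjusted p = 0.0194 and adjusted p = 0.874 by edgeR), with tumors that overlapped those of CK. By main effects, Bcl2l11 fell by 0.40 with anti-PD-1 (SE 0.0940, edgeR adjusted p = 0.00934), and the PB-020 effect was -0.23 (SE 0.0940, adjusted p = 0.406). The interaction, which asks whether the effect of PB-020 differed between tumors with and without anti-PD-1, was called for 0 of the 10 genes and 0% of all genes.

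Promoter windows of 300 bases, from 250 before to 50 after a transcript start (RefSeq, GRCm38.p6), were at hand for 9 of the 10 genes, in 15 windows. They were searched on both strands for the core of the FOXO motif, GTAAACA, because FOXO factors lie downstream of the IGF-1 receptor and AKT. It was in 3.65% of the 32851 windows of all genes and in 2 of the 15 windows of the members, 1 of Bcl2l11 and 1 of Bbc3, which are printed here on the plus strand of the genome with the match in capitals. The first is chr2:128125788-128126087, with the match starting 227 bases before the transcript start, and the second is chr7:16310011-16310310, with TGTTTAC, the same motif on the other strand, 167 bases before the start.
Bcl2l11: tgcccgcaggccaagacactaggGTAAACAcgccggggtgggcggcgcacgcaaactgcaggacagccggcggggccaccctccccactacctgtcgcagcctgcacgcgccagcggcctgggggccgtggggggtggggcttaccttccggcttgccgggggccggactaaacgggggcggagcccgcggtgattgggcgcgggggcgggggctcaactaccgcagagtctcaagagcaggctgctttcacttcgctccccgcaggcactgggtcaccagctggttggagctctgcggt
Bbc3: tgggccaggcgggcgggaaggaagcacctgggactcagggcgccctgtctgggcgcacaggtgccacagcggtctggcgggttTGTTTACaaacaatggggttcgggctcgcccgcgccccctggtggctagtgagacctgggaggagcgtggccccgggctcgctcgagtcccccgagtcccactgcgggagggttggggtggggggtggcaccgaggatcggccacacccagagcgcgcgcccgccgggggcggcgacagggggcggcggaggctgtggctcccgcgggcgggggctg
A match describes letters and not a bound site. The letters of the interferon response core GAAANNGAA were in 8.56% of all windows and in 0 of the 15 member windows. Both windows shown are rich in G and C, at 71.0% for Bcl2l11 and 74.7% for Bbc3.

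Bbc3, which encodes PUMA, was the other gene with this motif and ran from 7.01 to 10.7 FPKM in the 12 tumors, with a median of 9.04 in the 6 without and 8.06 in the 6 with anti-PD-1. Its log2 change in PB-020+anti-PD-1 against CK was -0.16 (SE 0.131, edgeR adjusted p = 0.412), and it was called in 0 of the 3 comparisons with CK.

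Pmaip1 (gene 58801) encodes NOXA, which binds MCL1 and promotes its degradation, and it was the most variable of the 10 genes, with its highest tumor at 2.52 times its lowest. Its FPKM was 18.8, 23.3 and 14.2 in CK, 21.6, 28.3 and 23.2 in PB-020, 28.6, 30.9 and 35.7 in anti-PD-1 and 27.7, 27.2 and 25.5 in PB-020+anti-PD-1. All 6 tumors given the antibody were above all CK tumors, and the highest tumor was in anti-PD-1. The rise in anti-PD-1 was 0.78 on the log2 scale (SE 0.164, edgeR adjusted p = 0.0201), or 1.71-fold, and that in PB-020+anti-PD-1 was 0.53 (SE 0.164, adjusted p = 0.0465), or 1.45-fold. The log2 change in PB-020 was 0.40 (SE 0.165, adjusted p = 0.874).

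Of the calls against CK, that of Pmaip1 in PB-020+anti-PD-1 was the least firm. It was lost in 8 of the 12 fits that left out a library (CK tumors 1 and 3, PB-020 tumors 1 and 3, anti-PD-1 tumor 2 and each PB-020+anti-PD-1 tumor), with log2 changes of 0.36 to 0.57 and edgeR adjusted p values of 0.0570 to 0.128. The lowest change, 0.36, was without CK tumor 3, the library with high neutrophil markers. In anti-PD-1 the call was lost without CK tumor 1 (adjusted p = 0.0507) or anti-PD-1 tumor 3 (0.0802). The main effect of anti-PD-1 was 0.46 (SE 0.116, adjusted p = 0.0172). It is the mean of 2 unlike changes, 0.78 without PB-020 and 0.13 with it. The latter, PB-020+anti-PD-1 against PB-020, was not called (SE 0.163, edgeR adjusted p = 0.665). PB-020 tumor 2, at 28.3 FPKM, lay above every PB-020+anti-PD-1 tumor. The interaction was -0.64 (SE 0.231), with an unadjusted p of 0.0176 and an adjusted p of 1 by edgeR, and so did not pass the test.

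Set against each other, Pmaip1 and Bcl2l11 gave a ratio that moved with treatment. The ratio of Pmaip1 to Bcl2l11 in FPKM was 1.39 to 2.62 in the CK tumors, 2.70 to 4.34 in PB-020, 4.05 to 6.54 in anti-PD-1 and 4.35 to 4.81 in PB-020+anti-PD-1. No treated tumor was as low as the highest CK tumor. The ratio was chosen after its values were seen and is given with no test.

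**Figure D3:**
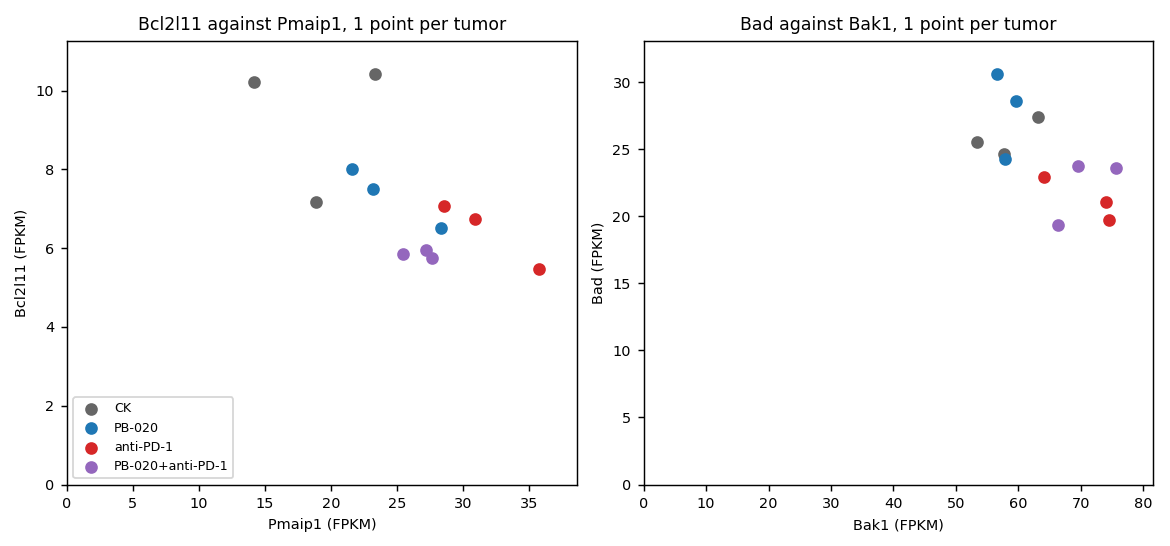
Left, Bcl2l11 against Pmaip1, and right, Bad against Bak1, both in FPKM with axes from 0 and 1 point for each of the 12 tumors, colored by group. On the right the 6 tumors with anti-PD-1 lie to the right of and below the 6 without it, at Bad levels of 19.3 to 23.8 against 24.3 to 30.6.

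Bad (gene 12015) encodes a BH3-only protein that binds BCL2 and BCL-XL unless it is phosphorylated by kinases such as AKT. It lies on the plus strand at chr19:6941861-6951905 (GRCm38.p6). The FPKM was 27.4, 25.5 and 24.6 in CK, 28.6, 24.3 and 30.6 in PB-020, 19.7, 23.0 and 21.0 in anti-PD-1 and 19.3, 23.8 and 23.6 in PB-020+anti-PD-1. As for Bak1, the 6 tumors with anti-PD-1 did not overlap the 6 without it, with medians of 22.0 and 26.5, but here they were lower. The main effect was a fall by 0.29 on the log2 scale (SE 0.0754, edgeR adjusted p = 0.0157). Single comparisons did not pass the test, with log2 changes of -0.26 (adjusted p = 0.144) in anti-PD-1 against CK, -0.22 (0.163) in PB-020+anti-PD-1 against CK and -0.32 (0.101) in PB-020+anti-PD-1 against PB-020. Of its exonic bases, 20.5% are shared with Gpr137 on the opposite strand, at a mean of 13.4 FPKM in CK and 11.8 in PB-020+anti-PD-1.

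Bid encodes the protein that links death receptors to mitochondria once caspase-8 has cut it. Its level was 26.5, 21.4 and 25.3 FPKM in CK, 27.2, 24.7 and 32.8 in PB-020, 26.4, 26.4 and 27.2 in anti-PD-1 and 28.5, 28.0 and 26.5 in PB-020+anti-PD-1. The groups overlapped, and the log2 changes against CK of 0.23 in PB-020 (SE 0.103) and 0.20 in PB-020+anti-PD-1 (SE 0.103) had edgeR adjusted p values of 0.874 and 0.193. Over the 5 BH3-only members, 1 rose and 1 fell in PB-020+anti-PD-1 against CK, where 17.9% of all genes were called. The median log2 change of the 5 was -0.16, beside -0.0026 for all genes tested.

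The genes around the family were read from lists of the same pathway. Of 15 other BCL2 family genes listed, 12 were tested, of which 0 were called in PB-020 (0% of all genes), 2 were higher in anti-PD-1 (8.26% of all genes were called in either direction), and 4 were higher and 1 lower in PB-020+anti-PD-1 (17.9%), where the median log2 change was 0.37. The higher genes were Bnip3 (0.58, SE 0.110), a mitochondrial protein induced by low oxygen, and Bcl2a1a (0.93, SE 0.194), Bcl2a1b (0.75, SE 0.173) and Bcl2a1d (0.97, SE 0.181), copies of the anti-apoptotic gene for A1 that is expressed in blood cells. These copies are nearly identical, so the division of reads among them is uncertain. The lower gene was Bmf (-0.71, SE 0.207), another BH3-only gene, at 1.92, 2.02 and 2.38 FPKM in CK and 1.01, 1.51 and 1.27 in PB-020+anti-PD-1.

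Downstream of the mitochondria, 2 of 18 apoptosome and caspase genes rose and 1 fell in PB-020+anti-PD-1 against CK, a share near the 17.9% of all genes called. Cycs, which encodes cytochrome c, rose by 0.59 on the log2 scale (SE 0.0923), from 29.3, 27.1 and 34.4 FPKM in CK to 44.1, 49.1 and 41.3, and Aifm1, a mitochondrial flavoprotein, rose by 0.43 (SE 0.112). Apaf1, the scaffold of the apoptosome, fell by 0.24 (SE 0.0763). Cycs and Aifm1 also rose in anti-PD-1, by 0.38 (SE 0.0925) and 0.39 (SE 0.112), and 0 of the 18 fell. The median of the list was 0.08 in PB-020+anti-PD-1.

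Upstream, 2 of 12 death receptor genes rose in PB-020+anti-PD-1 and 0 fell, again near the 17.9% of all genes called. Both were ligands. Fasl rose by 1.45 (SE 0.392) and Tnfsf10, which encodes TRAIL, by 1.30 (SE 0.301), and both also rose in anti-PD-1. Their levels were low, at 0.33 to 0.54 FPKM in CK and 1.02 to 1.20 in PB-020+anti-PD-1 for Fasl and 0.61 to 1.18 and 1.74 to 2.26 for Tnfsf10. T cell markers rose in the same tumors, 7 of 8 of them in PB-020+anti-PD-1, and their part in these values was not tested.

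Of 15 genes of p53 and its targets, 1 rose and 2 fell in PB-020+anti-PD-1 against CK, also near the 17.9% of all genes. Sesn1, a sestrin gene that also responds to FOXO factors, fell by 0.91 (SE 0.125) from 12.6, 15.7 and 16.5 FPKM to 6.88, 8.37 and 7.91, Eda2r fell by 0.85 (SE 0.192), and Ccng1 rose by 0.25 (SE 0.0792). Trp53 itself was at 259.7 to 297.6 FPKM in CK and 276.7 to 293.4 in PB-020+anti-PD-1. Among 15 genes of FOXO, AKT and the turnover of MCL1, 1 rose and 0 fell, against 17.9% of all genes called. It was Usp9x, which encodes a deubiquitinase that stabilizes MCL1 (0.35, SE 0.0944). In anti-PD-1 Usp9x rose by 0.38 (SE 0.0944) and Huwe1, a ubiquitin ligase for MCL1, by 0.31 (SE 0.0807). Named genes of these lists passed an adjusted p of 0.05 by edgeR's quasi-likelihood test, Trp53 excepted, in the comparisons given.

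**Figure D4:**
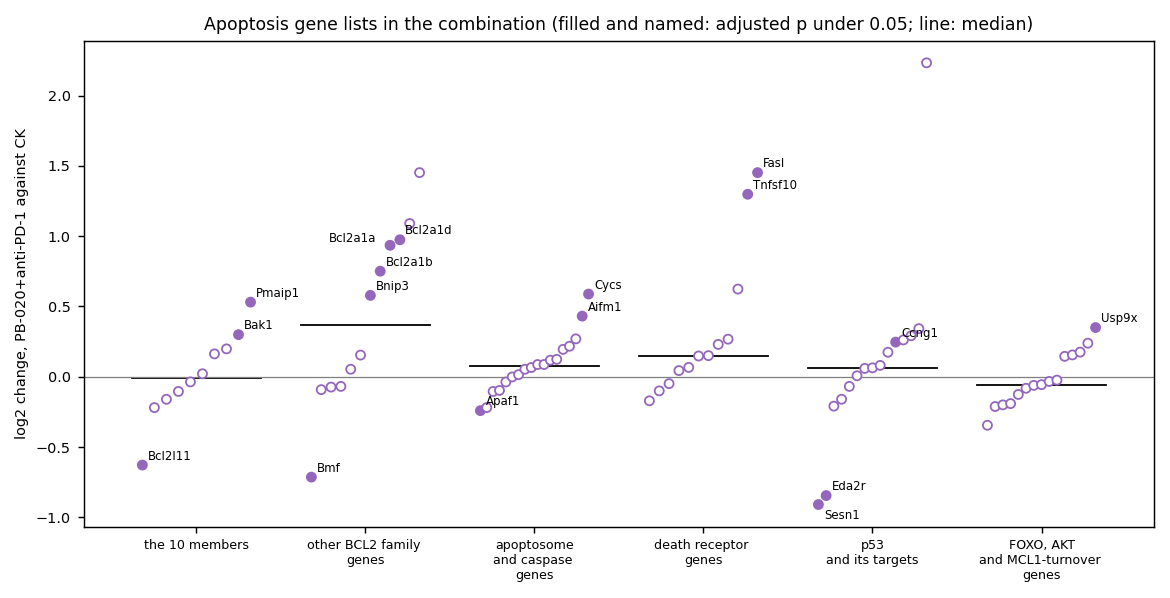
Log2 change in PB-020+anti-PD-1 against CK (vertical axis) for the 10 genes and for the tested genes of 5 lists of the pathway, 1 point per gene, where filled and named points passed an adjusted p of 0.05 and black lines are medians. The filled points lie on both sides of 0 in 4 of the 6 columns, and the medians run from -0.06 for the FOXO, AKT and MCL1-turnover genes to 0.37 for the other BCL2 family genes.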

How the data were processed

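RNA from 12 MC38 tumors was sequenced as paired reads. The study's methods name Bowtie2 and RSEM, and mm10 or hg19 as genome, while the submitters' processing notes list HISAT, Bowtie2 and GRCm38.p6. The authors deposited RSEM expected counts, FPKM and TPM per gene and tumor. RSEM divides reads between near-identical genes, so paralogs are uncertain. The authors' group averages were not used. Columns mapped to no sample numbered 0.

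Expected counts were rounded to whole numbers (91.0% were whole) and tested with edgeR 4.0.16 in R 4.3.3: filterByExpr (minimum count 10), TMM scaling, a robust quasi-likelihood fit of 4 group means to 12 libraries, two-sided tests, and Benjamini-Hochberg adjustment over 13563 genes. Libraries held 16545394 to 17217035 counts (median 16927043). TMM factors were 0.989 to 1.02. Standard errors are of the same fit and include the spread between tumors. Means and SDs are of FPKM. Python 3.11.15 and pandas 2.3.3 were used for levels. Gene positions came from RefSeq, and strands and exons from GENCODE, both for GRCm38.p6. Scripts were tested on simulated data. A few results are not reported here.

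All 10 members are named. Of other lists, called genes are named, up to 6 with the smallest p in PB-020+anti-PD-1 against CK, with Trp53 and the genes overlapping members added after their values were seen. The members and lists were chosen with earlier results of these data known, among them the fall of Bcl2l11 in PB-020+anti-PD-1. Alternatives were DESeq2 1.42.0, limma 3.58.1 on log2(FPKM + 1) and log2(FPKM + 0.1), no filter, a strict filter (10 CPM in 3 libraries), library size alone, DESeq2 size factors, a fit of the compared groups alone, replicate numbers entered as a block, single libraries left out, and TPM for the order of levels.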

Additional observations from a re-analysis of the deposited data

How the results depend on the processing

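The calls of Bak1, Pmaip1, Bad and Bcl2l11 by the anti-PD-1 main effect held in all 20 alternatives, and that of Bcl2l11 in PB-020+anti-PD-1 against CK in all 21. With 3 tumors a group, small changes of genes such as Bcl2 and Bbc3, at 204 to 363 counts, had wide intervals. Called genes were measured no more precisely. In PB-020+anti-PD-1 against CK the SE was 0.121 for Bcl2, 0.131 for Bbc3, 0.133 for Bcl2l11 and 0.164 for Pmaip1. The cause of the changes listed here was not tested.

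With only the groups compared, anti-PD-1 against CK called 3 of all genes and 0 members in place of 1120 and 3, and PB-020+anti-PD-1 against PB-020 called 1535 of all genes and 1 member (Bak1, adjusted p = 0.0205) in place of 455 and 0. DESeq2 called 66 of all genes for the PB-020 main effect, 6 for PB-020 against CK, 1 for PB-020+anti-PD-1 against anti-PD-1, and 1090 and 1 member (Bak1, adjusted p = 0.0212) for PB-020+anti-PD-1 against PB-020. Mcl1 in PB-020+anti-PD-1 against CK was called by DESeq2 (adjusted p = 0.0472) and not by edgeR (0.112). By limma on log2(FPKM + 1), 0 members passed the 1.5-fold call in PB-020+anti-PD-1. Only the groups compared left no member called in anti-PD-1, with adjusted p values of 0.105 for Bak1, 0.125 for Bcl2l11 and 0.0943 for Pmaip1. For Bcl2l11 in anti-PD-1 limma gave 0.0541 and 0.0530, and for Pmaip1 in PB-020+anti-PD-1 no filter gave 0.0700 and only the groups compared 0.0832.

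Leaving out single libraries moved the calls over all genes to 137 to 1905 (anti-PD-1 against CK), 864 to 3344 (PB-020+anti-PD-1 against CK), 0 to 1269 (PB-020+anti-PD-1 against PB-020), 2086 to 3690 (anti-PD-1 main effect), 0 to 2 (PB-020 against CK, and PB-020+anti-PD-1 against anti-PD-1) and 0 to 1 (PB-020 main effect and interaction). Members called were then 0 to 3 in anti-PD-1, 1 to 3 in PB-020+anti-PD-1 and 0 to 1 against PB-020, and by the 1.5-fold call 1 to 2 in anti-PD-1 and 0 to 1 in PB-020+anti-PD-1. The uncalled changes of Bax (-0.024 to 0.089) and Bcl2 (-0.18 to 0.086) crossed 0 in PB-020+anti-PD-1 against CK, Bax without CK tumor 2 (-0.024) or PB-020+anti-PD-1 tumors 1 or 2 (-0.013 each) and Bcl2 without PB-020+anti-PD-1 tumor 1 (0.086).

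Deviations of same-numbered tumors from their group means had correlations of -0.21 to 0.289 over 18 pairs, 2 of them over 0.1. With 3 tumors a group, these values cannot exclude a factor shared by number. With the replicate block, 870 of all genes and 2 members were called in anti-PD-1, 2010 and 3 in PB-020+anti-PD-1, 320 and 0 against PB-020, and 2711 and 4 by the anti-PD-1 main effect. The block took Bcl2l11 in anti-PD-1 to an adjusted p of 0.0572.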

Other observations

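The FPKM of the 10 genes was summed by role. In the CK tumors the 3 anti-apoptotic genes made up 38.2 to 39.9% of the FPKM of the 10, the 2 effectors 33.3 to 36.7% and the 5 BH3-only genes 24.5 to 26.8%. In PB-020+anti-PD-1 these shares were 37.7 to 39.2%, 36.6 to 37.3% and 24.3 to 25.1%. In PB-020 they were 37.5 to 38.9%, 33.1 to 35.4% and 26.4 to 29.0%, so that the BH3-only share lay above that of PB-020+anti-PD-1, and in anti-PD-1 they were 36.9 to 39.2%, 35.8 to 36.4% and 24.4 to 27.4%. The summed level of the 10 was 336.5 to 349.1 FPKM in CK and 359.0 to 369.2 in PB-020+anti-PD-1, and Mcl1 alone made up 25.8 to 27.6% and 26.8 to 28.1% of it. As pairs that bind each other as proteins, Pmaip1 stood at 15.3 to 26.2% of the level of Mcl1 in CK, 24.0 to 29.1% in PB-020, 27.4 to 36.3% in anti-PD-1 and 26.5 to 27.1% in PB-020+anti-PD-1. Bcl2l11 stood at 17.6 to 29.1% of Bcl2l1 in CK, 17.8 to 21.3% in PB-020, 13.1 to 19.2% in anti-PD-1 and 15.1 to 16.2% in PB-020+anti-PD-1.

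Across the 12 libraries, which share the group differences, the genes whose log2 CPM was most like that of Bak1 were Rfc5, a subunit of the clamp loader of DNA replication, at a Pearson r of 0.971, Reep4 at 0.963 and Apol10b at 0.951. For Pmaip1 they were Sowahc at 0.942, Vegfa, the vascular growth factor, at 0.932 and Tuft1 at 0.932. For Bcl2l11 they were Pik3r4, a regulatory subunit of the class III PI3 kinase, at 0.941, Hsd17b4 at 0.940 and Abcc9 at 0.938. These values describe the tumors sequenced here.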
